A study of Rattus norvegicus with 6 samples.

Results

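Acsl1, Dgat2 and Lpl were examined as 3 genes of fatty acid uptake and storage, out of 23091 genes listed in RNA-seq tables of rat penile cavernous tissue. They were chosen by identifier: ENSRNOG00000012181 was taken as Lpl, ENSRNOG00000010633 as Acsl1 and ENSRNOG00000016573 as Dgat2. The tissue came from the Norm group, Wistar-Kyoto rats with normal blood pressure, and from the SHR group, spontaneously hypertensive rats, a strain that develops high blood pressure without treatment. The study's methods give the rats as 10 weeks old, with a period of acclimatization before the experiment. Their age at tissue collection is not stated, and the labels name no drug or allele in either group. Each group had 3 libraries. Neither the labels nor the methods state that every library came from a separate rat, so p-values measure the spread between these libraries, which may in part be technical. The groups differ in strain and in blood pressure together, and the effects of the 2 cannot be told apart. The methods differ on whether the outer membrane of the urethra was the sampled part or was taken off before extraction.

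Circulating triglycerides are too large to enter a cell. Lipoprotein lipase, encoded by Lpl, is anchored on the capillary wall and splits triglycerides of circulating lipoproteins into fatty acids that the tissue can take up. Acsl1, a long-chain acyl-CoA synthetase, then couples a fatty acid to coenzyme A, which activates it for either storage or oxidation. Dgat2, a diacylglycerol acyltransferase, adds an activated fatty acid to diacylglycerol and so completes a triglyceride, which is kept in lipid droplets. Lpl and Acsl1 are best known from fat, heart and skeletal muscle, and Dgat2 from fat and liver.

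The files list genes by identifier only, and the reference table used here held no Ensembl identifiers, so that the names were checked by indirect means. The length implied by count, FPKM and library total was 3683 bases in every library for Lpl and 3859 bases in every library for Acsl1. For Dgat2 it lay between 2068 and 2102 bases. These are lengths usual for an mRNA. Neither this check nor the next, of the study's list, proves the names. All 3 identifiers are in the study's own list of differentially expressed genes, which was drawn from these same libraries. The direction of change was therefore known when the genes were chosen, and the tests given here are not independent evidence of it.

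Total counts per library were between 16608927 and 20017845. TMM factors, which correct library sizes for composition, ranged from 0.927 to 1.06. No cell type marker could be placed among the identifiers, so the labelled tissue was not checked against its markers. In bulk tissue, a change in the number of cells of a type and a change in RNA per cell cannot be told apart, for a rise or a fall.

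Of the 3 genes, 1 had a promoter window in the RefSeq table of the GRCr8 assembly, Acsl1. Dgat2 and Lpl had none. With a window for 1 gene only, nothing shared between the genes can be read from it. It covers 250 bases before and 50 bases from the annotated start, at chr16:52532343-52532642 on the minus strand. An ATG shortly after that start is followed by no stop codon in its frame up to the end of the window. That transcription begins at this start was not tested, and the window may lie inside the gene, not at its promoter. Capitals mark a CCAAT box read on the opposite strand, the only match among the motifs searched.
Acsl1: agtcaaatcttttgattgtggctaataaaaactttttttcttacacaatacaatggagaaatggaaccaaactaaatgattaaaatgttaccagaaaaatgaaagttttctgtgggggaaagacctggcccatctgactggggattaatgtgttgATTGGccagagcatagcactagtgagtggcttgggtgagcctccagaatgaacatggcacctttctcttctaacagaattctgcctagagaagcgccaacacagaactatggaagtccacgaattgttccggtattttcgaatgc

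The motifs were searched on both strands in all 33469 windows of the same length. CCAAT was found in 37.5% of windows. The element bound by PPAR with RXR, 2 copies of AGGTCA with 1 base between, was found in 0.0538% of windows. The others were its half-site AGGTCA in 16.2%, TATAAA in 14.2%, GGGCGG in 33.1% and CACGTG in 6.42%. The half-site is contained in the direct repeat. G and C made up 40.7% of the Acsl1 window, and the median over all windows was 51.7%.

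Lpl, Acsl1 and Dgat2 were all higher in the SHR group, and in each of them every SHR library lay above every Norm library. The fitted fold was 30.8 for Lpl, 20.2 for Acsl1 and 13.7 for Dgat2. Of all 13299 genes tested, 1.65% were called higher in the SHR group and 13.4% had all 3 SHR values above all 3 Norm values. SHR replicate 3 was the highest library and SHR replicate 2 the lowest SHR library for each gene.

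**Figure D1:**
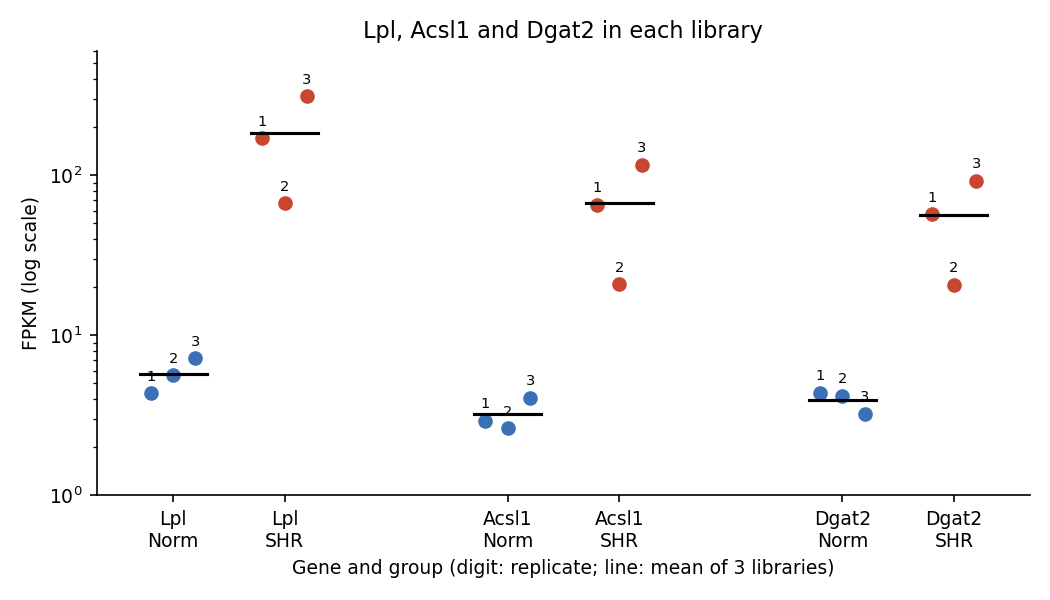
FPKM of Lpl, Acsl1 and Dgat2 (log axis) in each of 3 Norm and 3 SHR libraries, with the replicate number at each point and the group mean as a line. Every SHR point lies above every Norm point of the same gene, and the SHR points of all 3 genes are ordered replicate 3, 1, 2 from the top.

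For Lpl, which acts first in this sequence, 272, 367 and 531 fragments were counted in Norm replicates 1, 2 and 3. In SHR replicates 1, 2 and 3 the counts were 10401, 4558 and 19558. Even the lowest SHR library held 9.67 times the CPM (counts scaled by library total and TMM factor) of the highest Norm library. In CPM the group values were 21.4 ± 3.93 for Norm and 660 ± 449 for SHR (SD, n = 3 in each group). The log2 fold change of Lpl was 4.94 (standard error 0.53, adjusted p = 0.00343 by the quasi-likelihood test of edgeR). This placed Lpl at rank 51 of the 13299 genes by log2 fold change and at rank 34 by p-value.

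For Acsl1, which activates fatty acids inside the cell, the counts were 193, 179 and 315 in Norm replicates 1, 2 and 3. They were 4193, 1486 and 7606 in SHR replicates 1, 2 and 3. The gap between the groups was narrower than for Lpl, with the lowest SHR library at 5.32 times the CPM of the highest Norm library. The group values were 12.6 ± 2.07 CPM for Norm and 254 ± 181 CPM for SHR (SD, n = 3 in each group). The log2 fold change of Acsl1 was 4.33 (standard error 0.56, adjusted p = 0.00665 by the same edgeR test), rank 59 by log2 fold change.

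For Dgat2, which carries out the last step of triglyceride synthesis, 155, 156 and 134 fragments were counted in Norm replicates 1, 2 and 3. The lowest of these, 134, has an exact 95% Poisson interval of 112 to 159, which covers counting error only. The SHR counts of Dgat2 were 1982, 799 and 3273 in replicates 1, 2 and 3. No count interval comes near the other group, as the lowest SHR count of 799 has an interval of 745 to 856. The group values of Dgat2 were 8.49 ± 1.90 CPM for Norm and 116 ± 73.7 CPM for SHR (SD, n = 3 in each group). The log2 fold change of Dgat2 was 3.77 (standard error 0.50, adjusted p = 0.00707 by edgeR), rank 71 by log2 fold change.

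**Figure D2:**
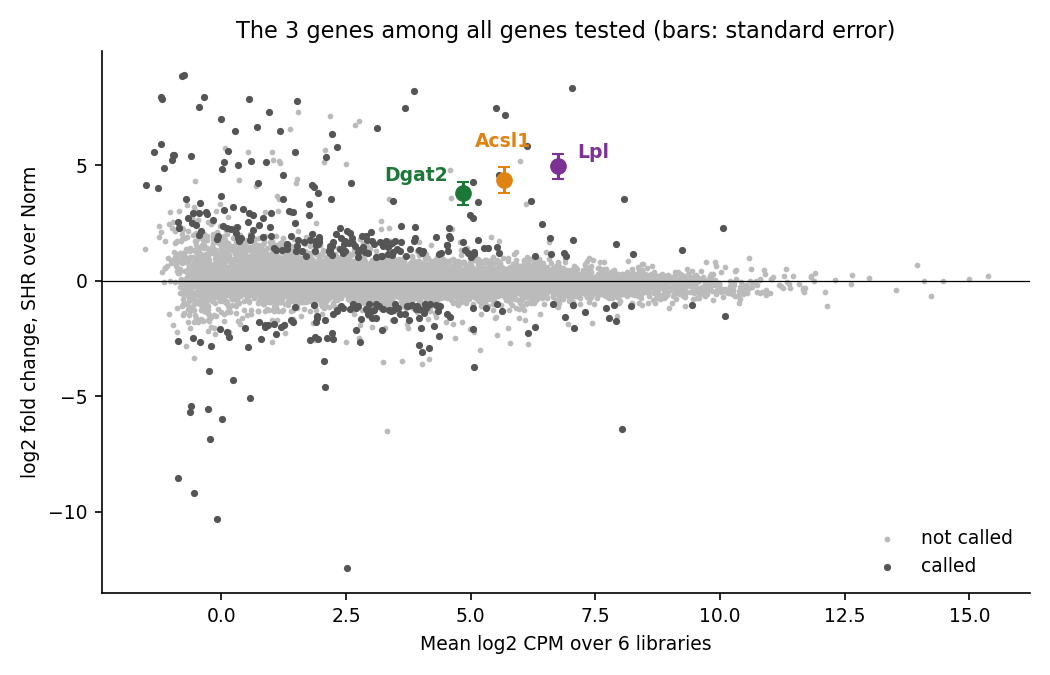
log2 fold change (SHR over Norm) against mean log2 CPM for the 13299 genes tested with edgeR, each point a gene, dark where called. Lpl, Acsl1 and Dgat2, with standard errors as bars, stand at 4.94, 4.33 and 3.77, while the median of all genes tested was -0.00489.

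When the library labels were permuted exactly, the two-sided p for the difference in log2 CPM was 0.1 for each gene, the smallest value that 3 libraries against 3 can give. The calls therefore rest on the spread that edgeR estimates for each gene with the help of all genes. As a coefficient of variation between libraries, that spread was 39.5% for Lpl, 42.1% for Acsl1 and 38.2% for Dgat2. Its median was 18.1% over all genes tested and 27.0% over the genes called higher, so these 3 genes were among the more variable. A gene was called when its adjusted p was under 0.05 and its log2 fold change was over 1 in size.

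The 3 genes ranked near the middle of the genes with an FPKM above 0 in the Norm libraries and in their upper part in the SHR libraries. By FPKM, which divides counts by gene length and library size, Lpl was ranked 8137th, 7340th and 6990th from the top in Norm replicates 1, 2 and 3. It was ranked 373rd, 929th and 210th in SHR replicates 1, 2 and 3. Acsl1 had ranks from 8926 to 9612 in the Norm libraries and from 544 to 2999 in the SHR libraries. Dgat2 had ranks from 8097 to 9560 in the Norm libraries and from 673 to 3013 in the SHR libraries. Summed, these genes took 0.00364%, 0.00398% and 0.00490% of the counts of Norm replicates 1, 2 and 3. They took 0.0998%, 0.0371% and 0.179% of the counts of SHR replicates 1, 2 and 3.

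For these genes the SHR libraries differed more from each other than the Norm libraries did. The highest SHR library exceeded the lowest by 4.69 times for Lpl, 5.60 times for Acsl1 and 4.48 times for Dgat2 in CPM. Among the Norm libraries the same ratio was 1.45 for Lpl, 1.38 for Acsl1 and 1.55 for Dgat2. The median over all genes tested was 1.27 among the SHR libraries, and over the 219 genes called higher it was 1.65. A ratio at least as large as that of Dgat2, the smallest of the 3, was shown by 1.59% of all genes tested and by 8.22% of the genes called higher. Against the Norm mean, Lpl stood at 28.2 times in SHR replicate 1, 11.3 times in replicate 2 and 53.0 times in replicate 3. Acsl1 stood at 19.3, 6.26 and 35.0 times the Norm mean in SHR replicates 1, 2 and 3. Dgat2 stood at 13.5, 4.99 and 22.4 times. All 3 genes thus shared one order of the SHR libraries, replicate 3 above 1 above 2. That order was shown by 22.0% of all genes tested and by 53.0% of the genes called higher, so it is common among genes that rose.

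**Figure D3:**
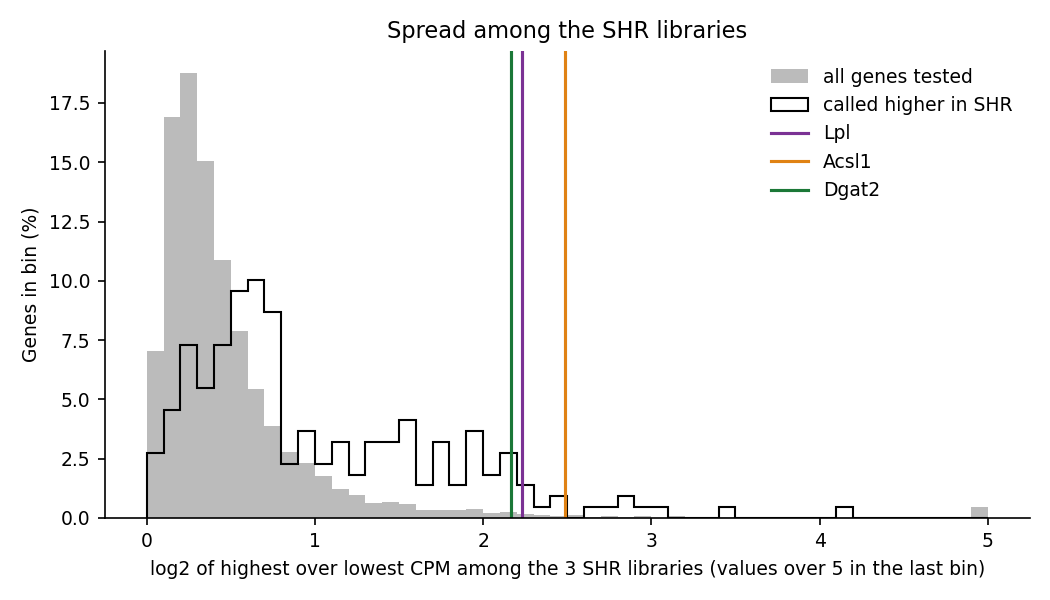
Distribution of the log2 ratio of the highest to the lowest CPM among the 3 SHR libraries, for all 13299 genes tested (filled) and the 219 genes called higher (outline), with ratios over 5 on the log2 scale in the last bin. Vertical lines mark Lpl, Acsl1 and Dgat2, whose ratios of 4.69, 5.60 and 4.48 lie in the right tail of both.

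In the Norm group no common order was seen. Lpl and Acsl1 were highest in Norm replicate 3, at 1.45 and 1.21 times the CPM of replicate 1. Dgat2 was lowest there, at 0.643 times the CPM of replicate 1.

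Levels of different genes were compared on FPKM. In the Norm group Lpl stood at 5.73 ± 1.44 FPKM, Dgat2 at 3.94 ± 0.614 FPKM and Acsl1 at 3.21 ± 0.764 FPKM (SD, n = 3). Neighbours in this order overlapped, both Lpl with Dgat2 and Dgat2 with Acsl1. In the SHR group the order was Lpl at 183 ± 123 FPKM, Acsl1 at 67.4 ± 47.6 FPKM and Dgat2 at 56.7 ± 35.7 FPKM (SD, n = 3). The ranges over libraries overlapped between neighbours here too, but they set aside that all 3 genes were measured in the same libraries. Within each SHR library the order held, with Lpl over Acsl1 at 2.60, 3.21 and 2.69 in SHR replicates 1, 2 and 3. Acsl1 over Dgat2 was 1.15, 1.01 and 1.26 in these replicates, so nearly level in replicate 2. The Norm order did not hold in every Norm library, as Lpl over Dgat2 was 0.990 in Norm replicate 1. Without SHR replicate 3 the SHR means were 119 FPKM for Lpl, 43.1 FPKM for Acsl1 and 38.9 FPKM for Dgat2.

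Ratios within a library remove that shared part of the spread. Lpl over Acsl1, in FPKM, was 1.48, 2.15 and 1.77 in Norm replicates 1, 2 and 3, and 2.60, 3.21 and 2.69 in SHR replicates 1, 2 and 3. All SHR ratios were above all Norm ratios, a difference of 0.67 on the log2 scale. Lpl over Dgat2 was 0.990, 1.34 and 2.22 in Norm replicates 1, 2 and 3, and 2.98, 3.23 and 3.39 in SHR replicates 1, 2 and 3, a difference of 1.15 on the log2 scale, again without overlap. Acsl1 over Dgat2 was 0.670, 0.625 and 1.26 in Norm replicates 1, 2 and 3, and 1.15, 1.01 and 1.26 in SHR replicates 1, 2 and 3. These overlapped, and the difference was 0.49 on the log2 scale. The exact two-sided permutation p was 0.1 for each ratio with Lpl and 0.4 for Acsl1 over Dgat2, and after adjustment over the 3 ratios it was 0.15, 0.15 and 0.4. The design cannot give a p below 0.1, so a larger rise of Lpl than of the other genes was not established by this test.

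**Figure D4:**
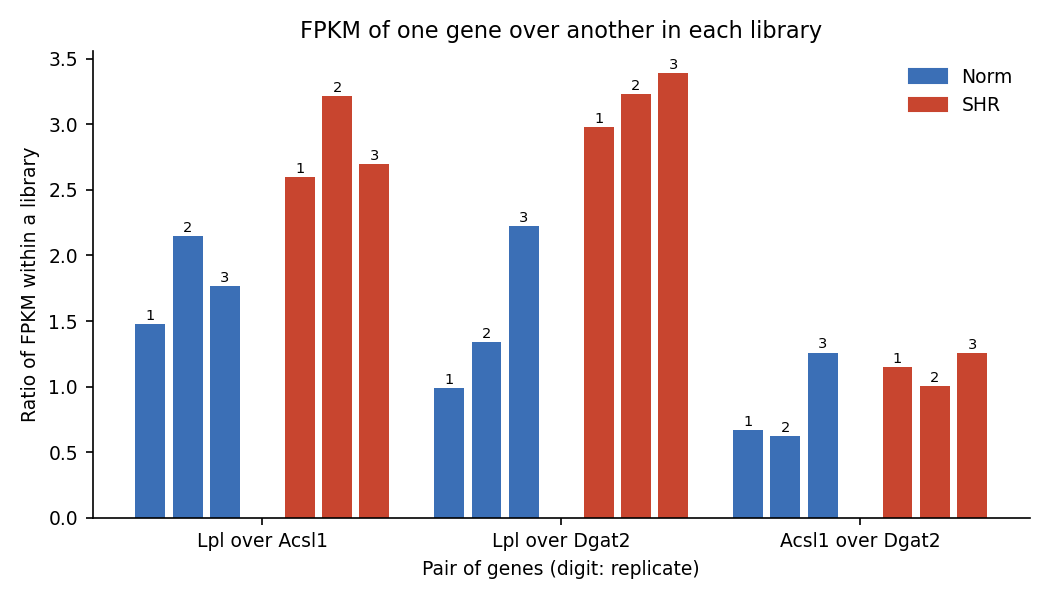
Ratio of FPKM between pairs of the 3 genes within each library, as bars from 0, for Norm (blue) and SHR (red) replicates 1 to 3. Lpl over Dgat2 is between 2.98 and 3.39 in the SHR libraries and between 0.990 and 2.22 in the Norm libraries, while Acsl1 over Dgat2 overlaps between the groups.

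Within the SHR group the ratios were steady while the levels were not. Lpl over Dgat2 varied by 1.14 times between the highest and the lowest SHR library, Lpl over Acsl1 by 1.24 times and Acsl1 over Dgat2 by 1.25 times. The same ratios varied by 2.25, 1.45 and 2.02 times among the Norm libraries. The counts were lower there, but the cause of the wider spread was not tested.

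The pattern over the 6 libraries was then compared with that of every other gene tested, by Pearson's r of log2 CPM, given as a description since the groups stand apart and set most of its size. Lpl and Acsl1 had an r of 0.994, Acsl1 and Dgat2 of 0.987 and Lpl and Dgat2 of 0.984. For Lpl, Acsl1 was the 14th most similar gene of 13298 and Dgat2 the 66th. For Dgat2, Acsl1 was the 21st and Lpl the 36th. An r of at least 0.99 was reached by 35 other genes for Lpl, by 29 for Acsl1 and by 9 for Dgat2, and 3 genes reached it with all of Lpl, Acsl1 and Dgat2. The closest of these to all of them was ENSRNOG00000048088, whose lowest r with the 3 genes was 0.993. It stood at 4.05, 3.84 and 3.81 CPM in Norm replicates 1, 2 and 3 and at 17.0, 9.76 and 23.0 CPM in SHR replicates 1, 2 and 3. The gene most similar to both Lpl and Acsl1 was ENSRNOG00000021207, with an r of 0.999 and 0.998. It was at or near 0 in the Norm libraries and at 5.57, 1.65 and 11.5 CPM in SHR replicates 1, 2 and 3. Neither gene is named in the files. Pearson's r takes no account of the size of a change. Of the 5 genes most similar to Acsl1, the 3rd and 5th had log2 fold changes of 0.580 and 0.595 and were not called. The 2nd most similar to Dgat2, at 0.597, was not called either, while the 5 most similar to Lpl all were.

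The size of the rise, though not the call, depended on single SHR libraries. Without SHR replicate 3, the fold fell from 30.8 to 19.7 for Lpl, from 20.2 to 12.8 for Acsl1 and from 13.7 to 9.29 for Dgat2. Without SHR replicate 2, it was 40.6 for Lpl, 27.2 for Acsl1 and 18.0 for Dgat2. All 3 genes were called with each library left out in turn, with adjusted p-values from edgeR between 0.000409 and 0.0454, the highest being that of Dgat2 without Norm replicate 3. Of the genes tested, 0.785% were called higher without SHR replicate 1, 2.64% without SHR replicate 2 and 0.944% without SHR replicate 3. Without Norm replicate 1, 202 of 13618 genes tested were called higher. The same counts were 122 of 13611 without Norm replicate 2 and 102 of 13576 without Norm replicate 3. DESeq2 called all 3 genes as well, and 2.8% of the genes it tested were higher by its call.

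**Figure D5:**
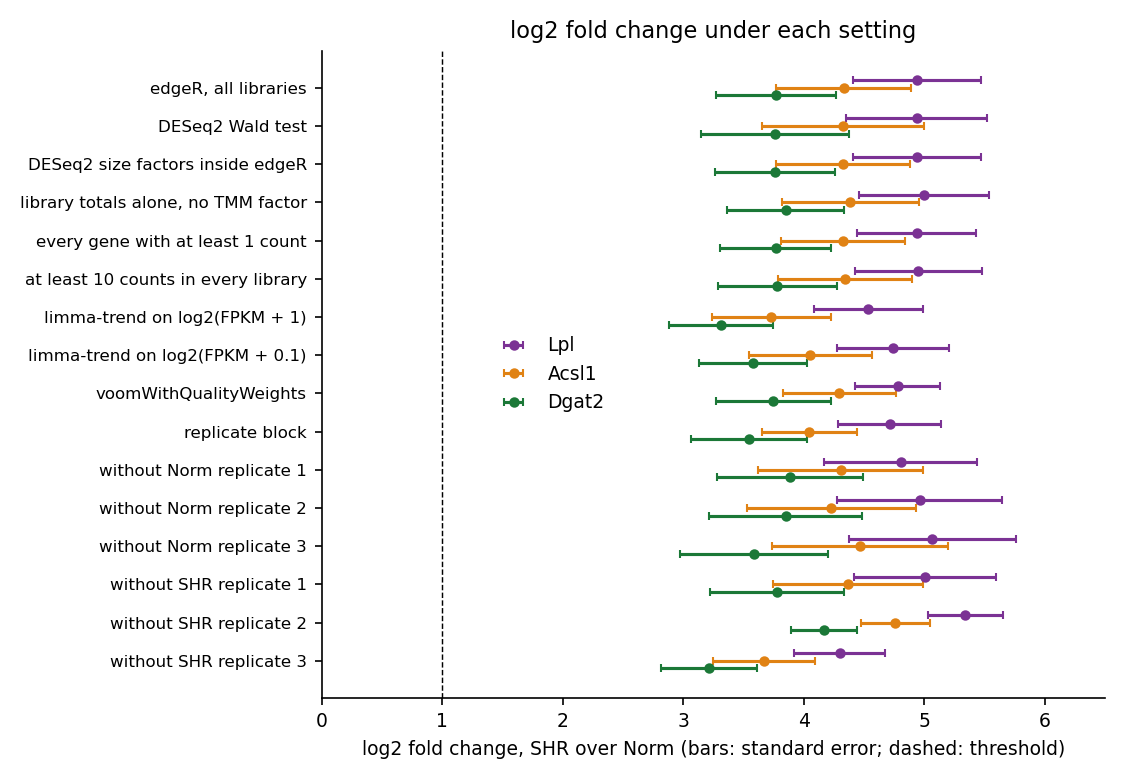
log2 fold change (SHR over Norm) of the 3 genes, with standard errors as bars, under edgeR on all libraries and under 15 alternative settings, among them 6 that leave out a library. Every value is to the right of the dashed threshold of 1, the lowest is 3.22 for Dgat2 without SHR replicate 3 and the highest 5.34 for Lpl without SHR replicate 2.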

How the data were processed

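For each of the 6 libraries the authors deposited whole-number counts of fragments per Ensembl gene, not normalized, and FPKM values, scaled to gene length and to the counted fragments of the library. The submitters' processing notes name fastp 0.18.0, Bowtie2 2.2.8, HISAT2 2.1.0, StringTie 1.3 and RSEM, without roles. The genome build and annotation are not given in the sources used here. A count of 0 stood beside a positive FPKM 31 times, so the deposited counts may have been rounded from estimates. They entered the tests without change. How reads shared by similar genes were assigned is not given in the sources used here.

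The test was the quasi-likelihood F-test of edgeR 4.0.16 (R 4.3.3) after filterByExpr and TMM scaling, with Benjamini-Hochberg adjustment over all genes tested. Standard errors were derived from the F statistic. Log2 CPM had a prior count of 2. In simulated data, 200 of the 13184 genes tested had been changed by known folds. Of these 200, edgeR called 166, each with the correct sign, plus 11 genes that had not been changed. How edgeR performs on the measured libraries, where the changed genes are not known beforehand, was not tested. The alternatives were DESeq2 1.42.0, other scalings and filters, limma 3.58.1 on log2(FPKM + 1), on log2(FPKM + 0.1) and with quality weights, a replicate block, and leaving out each library. Python 3.11.15 with pandas 2.3.3 and scipy 1.17.1 was used to merge the files. It also served for the permutation tests, count intervals, ranks, ratios, correlations and motif search.

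The members and lists were chosen with earlier results of these data known. The named genes were the 3 members in every library and the genes of most similar pattern. Of the latter only 2 identifiers are printed, the gene most similar to Lpl and to Acsl1 and the gene most similar to all 3, the second of which was chosen after its values were seen. The 6 pathway lists and 9 marker lists, set by symbol, were not analysed, because no table used here pairs symbols with these identifiers.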

Additional observations from a re-analysis of the deposited data

How the results depend on the processing

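Lpl, Acsl1 and Dgat2 kept their direction and their call in all 45 values under the 15 alternatives, with adjusted p-values from 1.91e-14 with DESeq2 to 0.0454. The direction was known when the genes were chosen, and every setting draws on the same libraries, so these calls are not independent support. The share of genes tested that were called higher ran from 102 of 13576 without Norm replicate 3 to 429 of 13299 with voomWithQualityWeights. With one library left out, the log2 fold change ran from 4.30 to 5.34 for Lpl, from 3.67 to 4.76 for Acsl1 and from 3.22 to 4.17 for Dgat2. With the replicate number as a block the log2 fold changes were 4.71, 4.05 and 3.55 and 248 genes were called. The deviations of same-numbered libraries from their group means correlated at -0.04, -0.15 and -0.12 across genes, so no shared deviation by number was seen. With 3 libraries in each group, this cannot show whether same-numbered libraries were handled together.

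Over all genes, edgeR called 345, 219 of them higher. DESeq2 called 609, voomWithQualityWeights 635, limma on log2(FPKM + 1) 213, and the adjusted p alone gave 540, where the dropped threshold adds genes by construction. For the other counts the cause was not tested. With one library left out there were from 156 to 486, the lowest without SHR replicate 1 and the highest without SHR replicate 2, where 73.5% were higher against 63.5% with all libraries. There were 181 without Norm replicate 2, 179 without Norm replicate 3 and 201 without SHR replicate 3. Counts of lists of fatty acid genes were not run, for want of names.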
